A study of Mus musculus with 32 samples.

Results

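Hmgcs1, Mvd and Pnpla3 are target genes of the sterol regulatory element-binding proteins (SREBPs), and their RNA was measured in livers of mice given sodium oxybate (SXB) or vehicle. SXB is the sodium salt of gamma-hydroxybutyrate and is used to treat narcolepsy; the study asked how it affects body weight in mice with developing and with established obesity. The members were taken by gene name from the deposited table of experiment T, which holds all 3 of them among its 306 genes. The table of the other experiment, P, holds 242 genes and 0 of the 3. The groups described here are T_SXB, with 8 liver libraries, and T_Vehicle, with 8 liver libraries, all from C57BL/6J mice, out of 32 libraries in the series. Dose, duration, diet, sex and age are not given in the labels, nor whether T stands for developing or established obesity, nor whether each library came from its own mouse. The p-values below therefore measure the spread between libraries, which may be technical. Hmgcs1 and Mvd varied together from library to library within both treatments, and some other listed genes followed Hmgcs1 about as closely. In the 16 libraries under their labels, the differences between SXB and vehicle livers in these 2 sterol genes were smaller than the spread within each group. They were larger with libraries 16 and 18, described below, left out or exchanged, and were not smaller than that spread in every set. Neither gene reached a limma adjusted p below 0.05 in any of these. Pnpla3 followed Hmgcs1 and Mvd more loosely, a difference that was not tested.

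SREBPs are transcription factors made as precursors in the membrane of the endoplasmic reticulum. When membrane sterol is low, they are carried to the Golgi, cut by proteases and released to the nucleus, where they bind sterol regulatory elements in promoters. SREBP2 acts mainly on the genes of cholesterol synthesis and uptake, and SREBP1c, which insulin induces in liver, mainly on those of fatty acid and triglyceride synthesis. Hmgcs1 encodes the cytosolic enzyme that makes HMG-CoA, the entry to the mevalonate pathway. Mvd encodes the decarboxylase that makes isopentenyl diphosphate later in the same pathway. Pnpla3 encodes a lipid droplet protein of the patatin-like phospholipase family, and in mouse liver it is induced by SREBP1c.

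The listing of a gene in the table was itself decided on these libraries. Every listed gene had an unadjusted p of 0.0496 or less and an absolute log2 fold change of at least 1.00 in the authors' test of SXB against vehicle. Differences between the treatments are for that reason given as descriptions of listed genes, and no test on them is independent of the selection. In the authors' deposited table the fold change, SXB over vehicle, was 0.500 for Hmgcs1, 0.474 for Mvd and 0.307 for Pnpla3. The corresponding unadjusted p-values in the authors' deposited table were 0.00363, 0.00353 and 0.00227, and the adjusted p-values 0.169, 0.168 and 0.134. Hmgcs1 lay next to the bound of the authors' deposited table, where 2 of the 306 genes had a smaller absolute log2 fold change. None of the 3 members reached an adjusted p below 0.05 there, against 43 of 306 listed genes (14.1%).

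Library 16, labelled vehicle, and library 18, labelled SXB, each sit among the columns of the opposite treatment. Results are given for the 16 libraries under their labels and for the 14 libraries without these 2. Libraries 1 to 4 also stood apart: the mitochondrial gene mt-Atp6 was listed at 486 to 3298 in SXB libraries 1, 2 and 3 and at 6422 in vehicle library 4, but at 44.8 or less in the other 12 libraries. It was listed at 0 in 7 libraries, and since liver cells do use this gene, a 0 in the table may be an estimate that failed. Of 8 hepatocyte markers 0 are in the table of T, so the tissue label could not be checked against them here.

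The promoters of the members are shown because the genes moved together across libraries, as described further on. They are the 250 bases before the RefSeq transcription start in GRCm38.p6, written 5′ to 3′ on the strand of the gene, at chr13:119690101-119690350 on the plus strand for Hmgcs1, chr8:122443423-122443672 on the minus strand for Mvd and chr15:84167566-84167815 on the plus strand for Pnpla3. Capitals mark matches on either strand to TCACNCCAC, a form of the sterol regulatory element, and to CCAAT, the box bound by NF-Y, a partner of SREBPs.
Hmgcs1: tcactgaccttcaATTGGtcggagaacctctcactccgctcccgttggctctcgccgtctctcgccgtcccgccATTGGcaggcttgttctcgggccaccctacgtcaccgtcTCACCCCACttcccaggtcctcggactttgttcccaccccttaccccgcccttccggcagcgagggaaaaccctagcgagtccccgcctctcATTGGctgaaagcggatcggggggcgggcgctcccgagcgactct
Mvd: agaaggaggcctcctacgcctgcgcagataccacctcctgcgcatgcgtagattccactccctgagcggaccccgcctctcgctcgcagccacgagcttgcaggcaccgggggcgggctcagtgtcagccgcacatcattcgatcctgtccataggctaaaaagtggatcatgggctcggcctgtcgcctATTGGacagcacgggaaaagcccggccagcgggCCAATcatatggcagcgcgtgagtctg
Pnpla3: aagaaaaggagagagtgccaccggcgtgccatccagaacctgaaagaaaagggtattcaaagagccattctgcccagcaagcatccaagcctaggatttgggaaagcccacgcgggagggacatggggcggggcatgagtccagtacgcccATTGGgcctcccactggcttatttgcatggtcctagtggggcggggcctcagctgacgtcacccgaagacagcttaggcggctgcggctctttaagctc

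The form TCACNCCAC was found in the promoter of Hmgcs1, where it begins 137 bases before the start, and no match was found in the windows of Mvd and Pnpla3. Of all 32851 RefSeq promoters in the same table, 1.05% hold it in a window of the same length. CCAAT was found 3 times in Hmgcs1, 2 times in Mvd and 1 time in Pnpla3, and 33.8% of promoters hold it. The GC box GGGCGG was found 2 times in Hmgcs1, 1 time in Mvd and 2 times in Pnpla3 and is held by 32.7% of promoters, while the E-box CACGTG (6.02% of promoters) was found in none of the 3. The matches to these motifs do not overlap each other in the 3 windows. Both strands were searched; a match describes the letters and is not a shown binding site, and a missing match says only that these letters are not in the window.

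**Figure D1:**
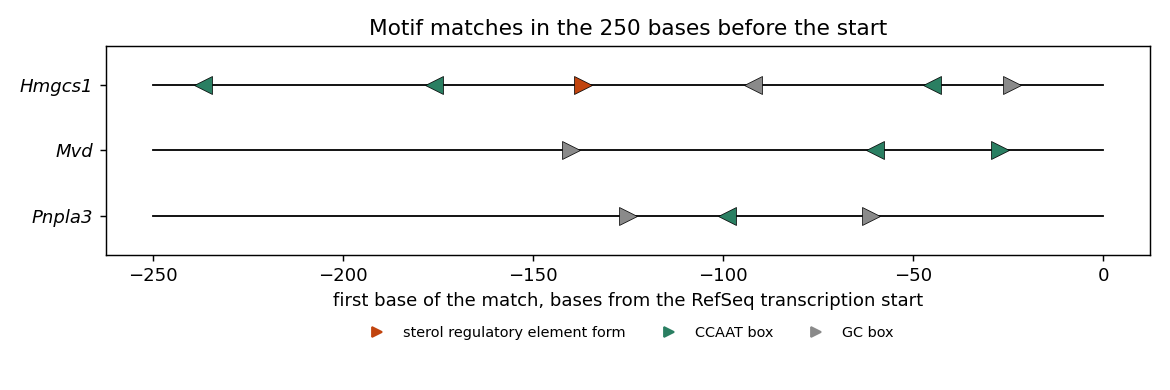
Position of motif matches (first base, in bases from the RefSeq transcription start) in the 250 bases before Hmgcs1, Mvd and Pnpla3; arrowheads give the strand. Hmgcs1 alone of the 3 holds the sterol regulatory element form, 137 bases before the start, and each window holds at least 1 CCAAT box.

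Hmgcs1 (ENSMUSG00000093930) lies on chromosome 13 from 119690379 to 119708260 in GRCm38. Its values in the T_SXB libraries were 3.76 in library 13, 3.92 in library 12, 7.69 in library 9, 9.13 in library 2, 19.88 in library 1, 20.17 in library 7, 29.91 in library 18 and 38.26 in library 3. In the T_Vehicle libraries they were 6.24 in library 16, 9.76 in library 14, 12.02 in library 6, 15.32 in library 10, 19.93 in library 8, 24.20 in library 11, 33.09 in library 15 and 56.14 in library 4. The groups overlapped over most of their range, with 4 SXB libraries at 9.13 or less and the other 4 at 19.88 or more, and vehicle library 4 the highest of all. Values are the authors' normalised expression values, whose unit is not stated, so levels of different genes are not compared. The antisense model Gm48342 overlaps Hmgcs1 on the other strand, and whether the authors' counting used strand is not stated.

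The mean of Hmgcs1 was 16.6 ± 12.7 with SXB and 22.1 ± 16.2 with vehicle (SD, n = 8 each), a ratio of 0.751. Without libraries 16 and 18 the means were 14.7 ± 12.4 with SXB and 24.4 ± 16.1 with vehicle (SD, n = 7 each), a ratio of 0.603, and all 7 vehicle libraries lay above the SXB median of 9.13. On the log2(value + 1) scale, which understates differences of low genes, the difference of SXB minus vehicle was -0.49 (SE 0.52; 95% interval -1.59 to 0.60) in 16 libraries and -0.86 (SE 0.51; -1.97 to 0.25) in 14. The limma adjusted p-values over all listed genes were 0.428 in 16 libraries and 0.157 in 14. The difference is smaller than the spread within each group in both sets.

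Mvd (ENSMUSG00000006517) lies on chromosome 8 from 122433601 to 122443422 on the minus strand, inside the much longer model Gm20388 of the plus strand. Its values with SXB were 0.97 in library 13, 1.09 in library 12, 1.54 in library 9, 1.62 in library 2, 4.61 in library 3, 5.05 in library 1, 6.99 in library 7 and 7.43 in library 18. With vehicle they were 1.07 in library 16, 2.47 in library 6, 2.67 in library 14, 4.66 in library 8, 4.84 in library 10, 5.20 in library 11, 8.19 in library 15 and 10.03 in library 4. The groups overlapped here too, and the same 4 SXB libraries, 2, 9, 12 and 13, were the lowest of their group as for Hmgcs1. The mean was 3.66 ± 2.69 with SXB and 4.89 ± 2.996 with vehicle (SD, n = 8 each; ratio 0.749), and 3.12 ± 2.39 against 5.44 ± 2.77 without libraries 16 and 18 (n = 7 each; ratio 0.575). The log2 difference was -0.39 (SE 0.40; 95% interval -1.25 to 0.47; limma adjusted p = 0.423) in 16 libraries and -0.74 (SE 0.38; -1.55 to 0.07; limma adjusted p = 0.123) in 14.

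Pnpla3 (ENSMUSG00000041653) lies on chromosome 15 from 84167837 to 84187236 on the plus strand, and the annotation places 3 further models over it, Mir6392 and Gm49513 on the same strand and Gm20369 on the other. It was a low gene in this table. With SXB it was listed at 0 in library 2 and had values of 0.05 in library 9, 0.08 in library 13, 0.14 in library 7, 0.17 in libraries 1 and 12, 0.50 in library 3 and 0.80 in library 18. With vehicle it had 0.08 in library 6, 0.31 in library 14, 0.32 in library 10, 0.46 in library 8, 0.55 in library 16, 0.61 in library 15, 1.01 in library 11 and 3.90 in library 4. Of the SXB libraries 7 of 8 lay below the vehicle median of 0.505 and 7 of 8 vehicle libraries lay above the SXB median of 0.155. The groups overlapped through libraries 3 and 18 of SXB and library 6 of vehicle. SXB library 3, at 0.50, lay above vehicle libraries 6, 14, 10 and 8.

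The log2 difference of Pnpla3 was -0.48 (SE 0.25; 95% interval -1.01 to 0.06; limma adjusted p = 0.207) in 16 libraries and -0.58 (SE 0.27; -1.16 to 0.01; limma adjusted p = 0.106) in 14. Without library 2, where it was listed at 0, these were -0.44 and -0.54. Without vehicle library 4 they shrank to -0.26 (limma adjusted p = 0.245) and -0.32 (limma adjusted p = 0.0897). In 14 libraries the gene passed when libraries 1 to 4 were a term of the model (-0.77, SE 0.24, limma adjusted p = 0.0488) or with a pseudocount of 0.1 or 0.01, which stretches the scale for low genes (-1.56 and -2.33, limma adjusted p = 0.0475 and 0.0480). Of all listed genes 16.3% passed with that term, 34.6% with a pseudocount of 0.1 and 38.2% with 0.01. In the same 14 libraries Pnpla3 did not pass when libraries 1 to 4 were left out (-0.37, limma adjusted p = 0.149; 1.31% of genes passed). In 16 libraries it did not pass with either pseudocount (-1.31 and -1.98, limma adjusted p = 0.140 and 0.136) or with the term (-0.61, limma adjusted p = 0.261).

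**Figure D2:**
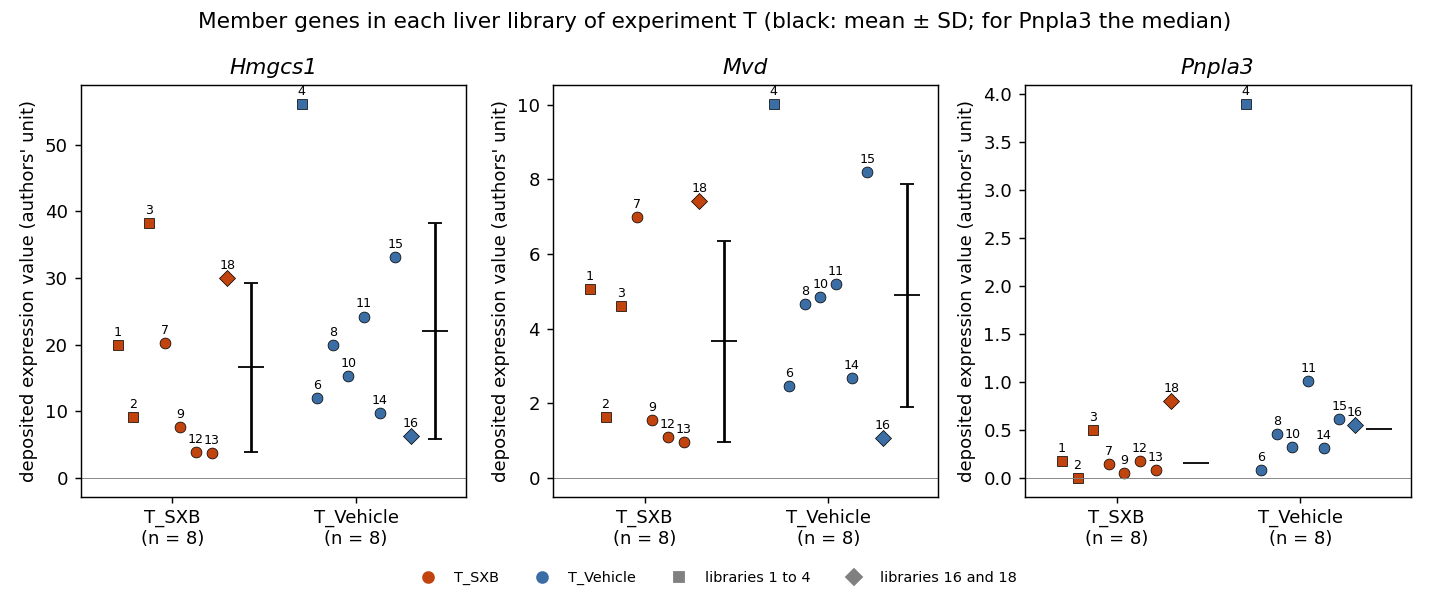
Deposited expression value (y axis, the authors' unit) of Hmgcs1, Mvd and Pnpla3 in every T_SXB (left) and T_Vehicle (right) library, numbered by library; black bars are mean ± SD, and for Pnpla3, listed at 0 in library 2, the median. Library 4 is the highest in each panel, at 56.14, 10.03 and 3.90, and the SXB and vehicle points overlap in all 3 panels.

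All 3 members were lower with SXB in both sets of libraries, as were 158 of 306 listed genes in each set (51.6%). Their listing as lower was fixed by the authors' selection. By limma 0 of 3 members passed in 16 libraries, where 0 of 306 genes (0%) passed, with 0 of 3 members and 90 of 306 genes (29.4%) at an unadjusted p below 0.05. The exact permutation test and the exact rank-sum test passed 0 genes each in 16 libraries, with 97 (31.7%) and 92 (30.1%) genes and 0 of 3 members at an unadjusted p below 0.05. In 14 libraries 0 of 3 members passed limma against 56 of 306 genes (18.3%), a count that lay between 3 and 76 when 1 library was left out, and 0 of 3 members had an unadjusted p below 0.05 against 147 genes (48%). The 37 genes that passed limma as lower in 14 libraries were 12.1% of those listed. By the exact permutation test in 14 libraries 0 of 3 members passed, against 61 genes (19.9%), and 1 of 3, Pnpla3 (p = 0.0198, adjusted p = 0.0549), had an unadjusted p below 0.05, against 167 genes (54.6%). By the exact rank-sum test these were 0 of 3 against 30 genes (9.8%), and 1 of 3, again Pnpla3 (p = 0.0286, adjusted p = 0.0683), against 157 genes (51.3%). The median log2 difference of the 3 members was -0.48 in 16 libraries and -0.74 in 14, beside -0.02 and -0.04 over all 306 genes. By the size of the p in 14 libraries, Pnpla3 ranked 156, Mvd 176 and Hmgcs1 228 of 306.

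Of the limma alternatives run on the 16 libraries with a pseudocount of 1, the exchange of libraries 16 and 18 moved the sterol genes most. With their groups exchanged, as their column blocks have it, the log2 difference was -1.02 (SE 0.46) for Hmgcs1, -0.90 (SE 0.35) for Mvd and -0.53 (SE 0.24) for Pnpla3. The limma adjusted p-values were then 0.0806, 0.0572 and 0.0820, so 0 of 3 members passed, against 90 of 306 genes (29.4%). The ratio of means, SXB over vehicle, was then 0.544 for Hmgcs1, 0.504 for Mvd and 0.222 for Pnpla3. For the sterol genes the fold changes of the authors' deposited table, 0.500 and 0.474, lie nearer to these than to the ratios under the labels, 0.751 and 0.749. For Pnpla3 the 0.307 of the authors' deposited table lies nearer to the ratio under the labels, 0.264. Both ratios of Pnpla3 rest on a vehicle mean in which library 4, at 3.90, is far above the next library, at 1.01. Neither grouping gave the authors' fold change for every listed gene: for mt-Atp6 it was 68.4, against a ratio of 0.942 in both. Which grouping the authors used was not tested.

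Libraries 1 to 4 and the other 12 were also looked at apart. Within libraries 1 to 4, Hmgcs1 was 9.13 to 38.26 in the 3 SXB libraries against 56.14 in the only vehicle library, Mvd 1.62 to 5.05 against 10.03, and Pnpla3 0 to 0.50 against 3.90. A single vehicle library allows no test there. In the other 12 libraries (5 SXB, 7 vehicle) the log2 difference was -0.62 (SE 0.55) for Hmgcs1, -0.34 (SE 0.48) for Mvd and -0.25 (SE 0.17) for Pnpla3, with limma adjusted p-values of 0.605, 0.708 and 0.558. With libraries 16 and 18 left out as well (4 SXB, 6 vehicle), the differences were -1.20 (SE 0.48) for Hmgcs1, -0.83 (SE 0.43) for Mvd and -0.37 (SE 0.15) for Pnpla3, with limma adjusted p-values of 0.149, 0.207 and 0.149. Without vehicle library 4 alone, the difference in 16 libraries was -0.27 for Hmgcs1 and -0.24 for Mvd. What sets these libraries apart, and its part in the values of the members, was not tested.

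**Figure D3:**
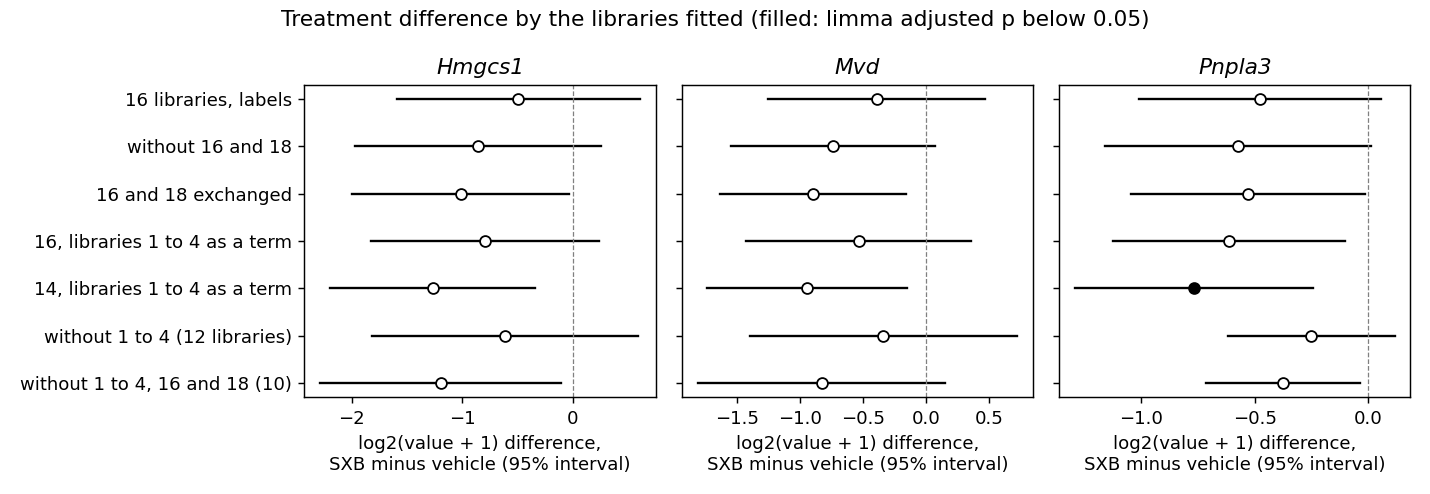
Difference of SXB minus vehicle on the log2(value + 1) scale with its 95% interval (x axis) for each member, by the libraries fitted (rows); filled points have a limma adjusted p below 0.05. All points lie below 0, from -1.27 to -0.25, and the single filled point is Pnpla3 in 14 libraries with libraries 1 to 4 as a term.

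Hmgcs1 and Mvd, enzymes of the same pathway, followed each other closely from library to library. Over 16 libraries Pearson's r on log2(value + 1) was 0.94 and Spearman's rho 0.90, both with a permutation p of 1e-05, the smallest that 100000 resamples can give (adjusted 3e-05 over 3 pairs). Within the 8 SXB libraries r was 0.92 and rho 0.86 (exact permutation p = 0.0064 and 0.011; adjusted 0.019 and 0.032). Within the 8 vehicle libraries r was 0.97 and rho 0.95 (exact permutation p = 0.0003 and 0.0011; adjusted 0.00089 and 0.0034). Without libraries 12 and 13, the farthest from the median of Hmgcs1, r was 0.92, and in the 12 libraries without 1 to 4 it was 0.97. The relation thus held within each treatment and did not rest on the libraries that stood apart. Libraries 9, 12, 13 and 16 were the 4 lowest of 16 for both genes, and libraries 4, 15 and 18 were among the 4 highest for both. Closeness of this order was not particular to the pair: rho of Hmgcs1 was 0.89 with Chrna4 and 0.87 with Phospho1 over 16 libraries.

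The ratio of Hmgcs1 to Mvd within a library does not depend on how libraries were scaled. It ranged from 2.89 in library 7 to 8.30 in library 3 with SXB, with a median of 3.98, and from 3.17 in library 10 to 5.83 in library 16 with vehicle, with a median of 4.47. The mean ratio was 4.66 ± 1.70 with SXB and 4.51 ± 0.917 with vehicle (SD, n = 8 each), a difference well inside the spread (exact permutation test on the log2 ratio, two-sided, p = 0.995; without libraries 16 and 18, p = 0.735). Library 3, the second highest of all 16 for Hmgcs1, was the ninth for Mvd, which gives it the highest ratio.

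Pnpla3 followed the sterol genes less closely, and the difference between the correlations was not tested. With Hmgcs1, r was 0.67 and rho 0.68 over 16 libraries (permutation p = 0.0014 and 0.0046; adjusted 0.0021 and 0.0068). With Mvd, r was 0.61 and rho 0.63 (permutation p = 0.0039 and 0.011; adjusted 0.0039 and 0.011). All 3 members were selected as lower with SXB on these same libraries, which can add to a correlation pooled over both treatments. The pooled permutation p-values of all 3 pairs are therefore not independent of that selection. Without libraries 16 and 18, rho of Pnpla3 was 0.80 with Hmgcs1 and 0.72 with Mvd, against 0.89 between Hmgcs1 and Mvd. Without libraries 12 and 13, r of Pnpla3 with Hmgcs1 was 0.68, and without libraries 13 and 16, its r with Mvd was 0.67. In the 12 libraries without 1 to 4, r of Pnpla3 was 0.63 with Hmgcs1 (permutation p = 0.029; adjusted 0.044). With Mvd it was 0.54 there and did not pass (permutation p = 0.072; adjusted 0.072). Within the treatments rho with Hmgcs1 was 0.61 for SXB and 0.71 for vehicle (exact permutation p = 0.12 and 0.058, n = 8 each), and rho with Mvd was 0.53 and 0.71 (exact permutation p = 0.18 and 0.058), so neither relation passed by rank within a treatment. Within treatments r of Pnpla3 with Hmgcs1 was 0.69 for SXB and 0.75 for vehicle (exact permutation p = 0.049 and 0.026; adjusted 0.067 and 0.038), and with Mvd 0.66 and 0.63 (exact permutation p = 0.067 and 0.099). In libraries 4, 15 and 18 all 3 members were among the 4 highest of 16, and in libraries 9 and 13 all 3 were among the 4 lowest.

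**Figure D4:**
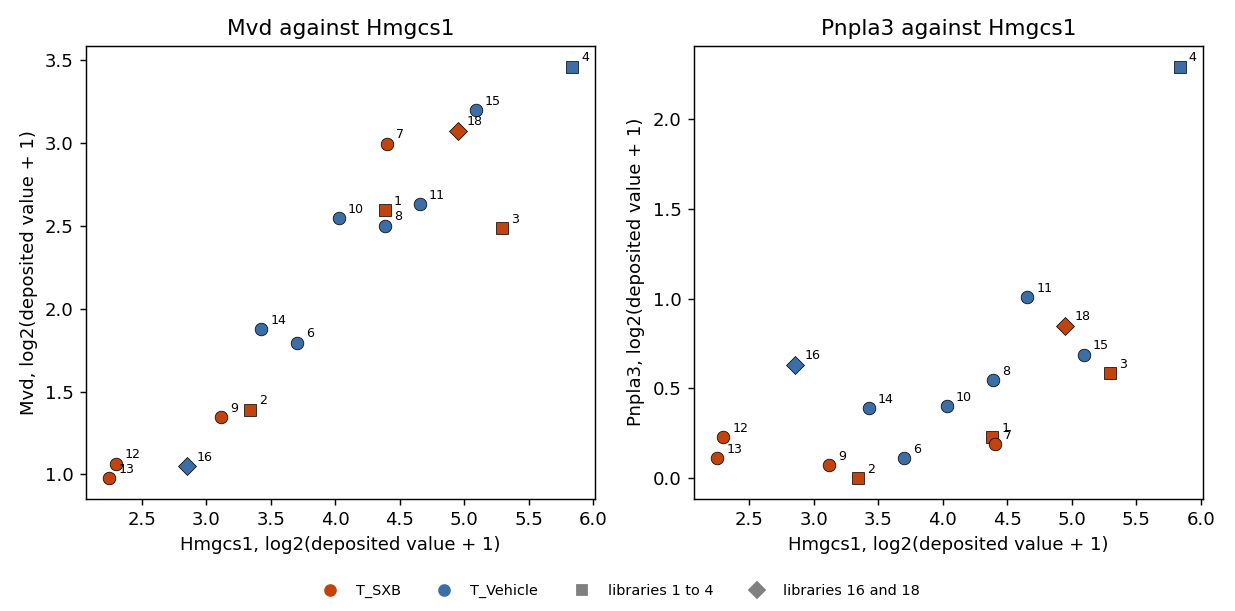
Mvd (left) and Pnpla3 (right) against Hmgcs1, each as log2(deposited value + 1), 1 point per library with its number; colour gives the treatment label. Mvd rises with Hmgcs1 along a narrow band in both treatments (r = 0.94), while Pnpla3 is more scattered (r = 0.67), with vehicle library 4 far above the others.

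The genes most like each member were taken from the listed genes that have a symbol and a mean of at least 1, by Spearman's rho over the 16 libraries, as a description. For Hmgcs1, out of 62 such genes, they were Mvd (0.90), Chrna4, a subunit of nicotinic acetylcholine receptors (0.89), and Phospho1, a phosphatase known from bone mineralisation (0.87). Chrna4 kept a rho of 0.98 within SXB libraries and 0.90 within vehicle libraries. For Mvd they were Hmgcs1, Aqp8, a water channel of hepatocytes (0.81), and Adgrv1, an adhesion G protein-coupled receptor (0.79). For Pnpla3, out of 63, they were Gsta1, a glutathione transferase (0.88), and Raet1d and Raet1e, ligands of a receptor of natural killer cells (0.85 each), which overlap on the plus strand of chromosome 10, so that reads may be shared. These genes share libraries, scaling and the authors' selection with the members.

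**Figure D5:**
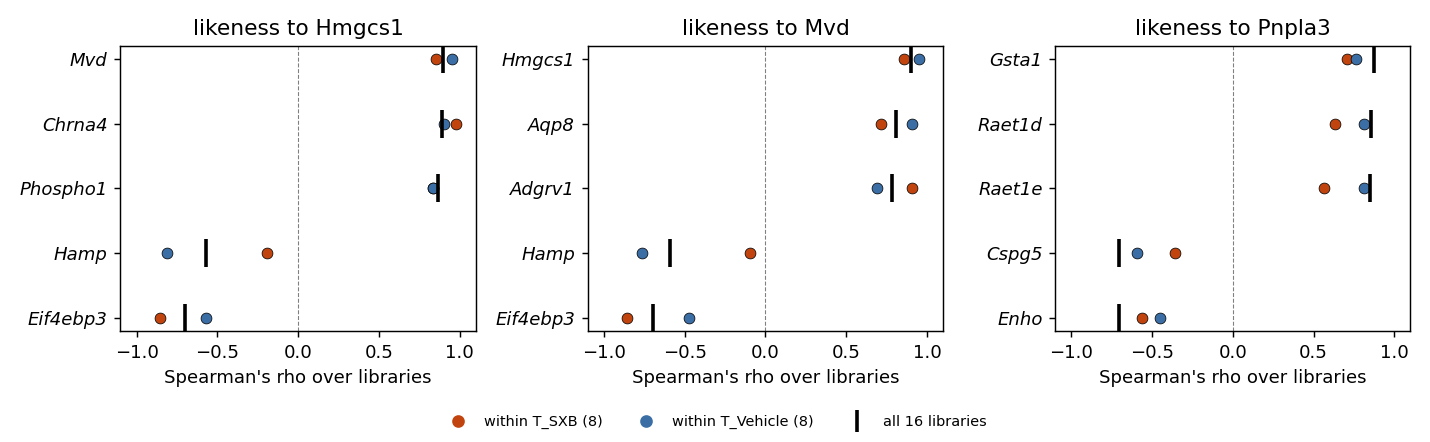
Spearman's rho (x axis) of the 3 most like and 2 most unlike listed genes with each member, over all 16 libraries (black bar) and within the 8 SXB and 8 vehicle libraries (dots). For Hmgcs1, Chrna4 lies at 0.90 or above within both treatments, while Hamp is at -0.81 within vehicle and -0.19 within SXB.

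Few other genes of these pathways are listed. Of 27 genes of sterol synthesis and SREBP2 targets 2 are in the table of T, both of them members, so the other genes of that list were not analysed here. Only genes within the authors' bounds are listed, so the others may have missed those bounds or gone untested. Of 26 genes of fatty acid and triglyceride synthesis and SREBP1c targets 3 are listed, namely Pnpla3, Pnpla5 and Apoa4. Of 15 genes of SREBP control 0 are listed. The table of P holds 0 genes of these 3 lists.

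Pnpla5, a lipase relative of Pnpla3 that lies on the same chromosome from 84112356 to 84123175, was very low, at 0 to 0.27 with SXB, where it was listed at 0 in libraries 1, 2 and 13, and 0.02 to 0.30 with vehicle. Its log2 difference was -0.11 (SE 0.06; limma adjusted p = 0.219) in 16 libraries. In 14 libraries it fell by 0.17 on the log2(value + 1) scale (SE 0.05; limma adjusted p = 0.0421), the only called gene of the 3, where 12.1% of all listed genes were called as lower. It did not pass without libraries 1 to 4 (-0.15, limma adjusted p = 0.149), nor without 1 of libraries 1, 2, 4, 7, 9, 10, 11, 12, 13 and 15. Apoa4, an apolipoprotein of triglyceride-rich particles, had 108 to 733 with SXB, with a median of 233, and 171 to 1214 with vehicle, with a median of 380. Its log2 difference was -0.54 (SE 0.45; limma adjusted p = 0.340) in 16 libraries and -0.83 (SE 0.45; limma adjusted p = 0.135) in 14. In the authors' deposited table the adjusted p-values were 0.0216 for Pnpla5 and 0.203 for Apoa4, where 14.1% of listed genes were below 0.05.

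Of 10 lipid storage genes with a known link to PPARG 6 are listed. All 6 had a log2 difference below 0, as had 51.6% of all listed genes. In 16 libraries 0 of the 6 passed limma, where 0 of 306 listed genes passed. In 14 libraries 2 passed, Mogat1 (-0.59, SE 0.15) and G0s2 (-1.66, SE 0.52), against 18.3% of all listed genes. Without libraries 1 to 4 neither passed in 14 libraries, Mogat1 at -0.62 (limma adjusted p = 0.123) and G0s2 at -0.70 (limma adjusted p = 0.248), and with them as a term G0s2 did not (-1.27, limma adjusted p = 0.0619). Leaving out 1 library ended the call of G0s2 in 11 of 14 cases, all but libraries 7, 9 and 14, and that of Mogat1 in 2, libraries 2 and 10. The 6 genes' median log2 difference in 14 libraries was -0.83, and the authors' selection fixed their direction as well. In the authors' deposited table the adjusted p-values were 0.0120 for Pparg, 0.0175 for Mogat1, 0.0251 for Cidea and 0.0373 for Cidec. For Cd36 and G0s2 they were 0.137 and 0.225, and 14.1% of listed genes were below 0.05 there.

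Listed markers of other cell types are given first for the 14 libraries. Markers of adipocytes, of which 2 of 8 are listed (Cfd and Cidec), summed to 1.42 to 7.99 with SXB and 3.73 to 88.1 with vehicle, and SXB library 18 had 20.1. Markers of B and plasma cells, 2 of 7 listed (Cd79b and H2-Ob), summed to 0.40 to 0.91 with SXB and 0.84 to 9.71 with vehicle. In all 16 libraries the sums were 0.40 to 2.38 with SXB, highest in library 18, and 0.42 to 9.71 with vehicle. Markers of mesothelium, 2 of 4 listed, had 0 to 0.35 with SXB and 0.14 to 0.76 with vehicle, those of macrophages, 3 of 12 listed, 0.59 to 5.07 and 1.01 to 12.4, and that of exocrine pancreas, Cela2a, 1 of 7 listed, 0.46 to 1.55 and 0.14 to 0.64. In all 16 libraries mesothelium markers had 0 to 0.42 with SXB and 0.14 to 0.76 with vehicle. Macrophage markers had 0.59 to 5.07 and 0.72 to 12.4 there, and Cela2a had 0.08 to 1.55 and 0.14 to 0.64. Limma passed 56 of 306 listed genes (18.3%) in the 14 libraries. Of the markers, Cfd (-2.36, SE 0.62), H2-Ob (-1.13, SE 0.34) and Cd79b (-0.31, SE 0.10) fell there and Cela2a rose (0.41, SE 0.12), with limma adjusted p-values of 0.0339, 0.0406, 0.0495 and 0.0387. None of these 4 passed in 16 libraries or without libraries 1 to 4. Their calls were lost without 1 library in 4, 9, 13 and 8 of 14 cases. Msln (-0.20, limma adjusted p = 0.0541) and Upk3b (-0.19, limma adjusted p = 0.0619) did not pass. Cidec, Itgax, Ccl2 and Mmp12 did not pass either in the 14 libraries, with limma adjusted p-values of 0.143, 0.301, 0.322 and 0.185. Of the markers of stellate cells, endothelium and cholangiocytes 0 are listed. The part of these cells in the values of the members was not tested, and in whole liver fewer cells of a type and less RNA per cell cannot be told apart.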

How the data were processed

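Liver RNA was isolated with TRIzol and read as paired ends on a HiSeq instrument, per the labels' protocols. Build GRCm38 and the tools HISAT2, StringTie, RSEM, fastp and DESeq2 are named, per the submitters' processing notes, with neither versions nor roles. The authors deposited 1 table per experiment with a normalised expression signal per gene and library, rounded to 0.01, with no word on TPM or FPKM. Headers of the comparison columns sit 1 place off: judged by their values, the deposited columns hold a linear fold change (ratio), its log2, a p-value and an adjusted p-value. The tables hold selected genes, so their sums are not depth, which is unknown. Of the 306 genes 220 have a mean below 1, so their precision is low.

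Libraries were grouped by treatment label. The test was limma 3.58.1 (R 4.3.3) on log2(value + 1), two-sided, fitted over all 306 genes, with Benjamini-Hochberg adjustment over all of them and a threshold of 0.05; it was tested on simulated data. Permutation tests in Python 3.11.15 used all 12870 assignments of 16 libraries or 3432 of 14; correlations used 100000 resamples, or all 40320 orders of 8 libraries. Libraries were not duplicates (rho 0.45 to 0.86). Alternatives were other pseudocounts, a mean of at least 1, limma's robust and trend options, the permutation and rank-sum tests, a term for or omission of libraries 1 to 4, exchange of 16 and 18, and each library left out; those of the correlations other than the treatments and the farthest libraries were added after the data were seen. Members, lists, markers and the naming rule (all members, every listed gene of the pathway lists, the 3 most like and 2 most unlike genes) were chosen with earlier results of these data known; not every marker is named. Gene IDs matched GENCODE M21 for 305 of 306, and promoters are from RefSeq (GRCm38.p6), with all 3 members matched.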

Additional observations from a re-analysis of the deposited data

Results flagged for a closer look

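Pnpla3 in vehicle library 4, at 3.9, stood apart from the other vehicle libraries, the nearest of which was library 11 at 1.01. The gap is 0.757 of the range of the group, above the bound of 0.526 for 8 libraries, and above that of 0.568 for the 7 left without library 16. Library 4 was the highest vehicle library for Hmgcs1 and Mvd too, without passing this bound. Without libraries 16 and 18, Pnpla3 in SXB library 3, at 0.5, also stood apart from the next, at 0.17, with a gap of 0.66 of the range against a bound of 0.568. If values were normally distributed, which was not tested, chance alone would flag about 1 in 20 groups. In all 12 were looked at, counting each group with and without libraries 16 and 18, so the 12 overlap. Both libraries are among the 4 with high mt-Atp6; the cause was not tested.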

How the results depend on the processing

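Hmgcs1 and Mvd kept their direction and did not pass under any alternative run, and Pnpla3 kept its direction under each that gave a value; with a mean of at least 1 required, Pnpla3 left the fit and gave none. Pnpla3 in 14 libraries passed with pseudocounts of 0.1 (-1.56) and 0.01 (-2.33) and with libraries 1 to 4 as a term (-0.77). With 1 library left out, the log2 differences in 16 libraries were -0.71 to -0.27 for Hmgcs1, -0.58 to -0.24 for Mvd and -0.57 to -0.26 for Pnpla3, and in 14 libraries -1.15 to -0.63, -0.93 to -0.59 and -0.69 to -0.32, the smallest each time without vehicle library 4. The number of listed genes passing was 0 in 16 libraries, also with any 1 left out, 2 with a pseudocount of 0.01 and 90 with 16 and 18 exchanged. It was 56 in 14 libraries, 106 and 117 with pseudocounts of 0.1 and 0.01, 30 by the rank-sum test, 4 without libraries 1 to 4, and 3 to 76 with 1 library left out: 3, 29, 31 and 29 without SXB libraries 2, 1, 12 and 13, and 16, 19, 25, 30 and 33 without vehicle libraries 10, 4, 11, 8 and 15. The cause was not tested. Spearman's rho of Hmgcs1 and Mvd passed in every set of libraries tried. That of Pnpla3 with Hmgcs1 missed the threshold within SXB (0.61) and vehicle (0.71), and with Mvd within SXB (0.53), within vehicle (0.71) and without libraries 1 to 4 (0.57); fewer libraries remained in each. No paired analysis was possible because the labels give no replicate numbers shared between the groups. Depth is unknown, and values near 0.01, the rounding step, limit Pnpla3 most.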

Other observations

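Some listed genes ran opposite to the members across the 16 libraries. Eif4ebp3, a repressor of translation that binds eIF4E, had the lowest Spearman's rho with Hmgcs1 (-0.70) and with Mvd (-0.70), and it averaged 100.7 ± 49.2 with SXB and 46.6 ± 39.4 with vehicle (SD, n = 8 each). With Hmgcs1 its rho was -0.86 within SXB libraries and -0.57 within vehicle libraries. Hamp, the gene of the iron hormone hepcidin, came next, with -0.57 for Hmgcs1 and -0.59 for Mvd. Its rho with Hmgcs1 was -0.19 within SXB and -0.81 within vehicle libraries, and the difference between the treatments was not tested. For Pnpla3 the most unlike genes were Enho, which encodes the secreted peptide adropin (-0.71), and Cspg5, a chondroitin sulfate proteoglycan (-0.70). These are descriptions over the same libraries from genes the authors had selected.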
